A study of Mus musculus with 244 samples.

Results

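The 9 genes described here belong to the pathways through which KIT, the insulin receptor and the mTOR complexes act on the oocyte: *Kit*, *Kitl*, *Foxo3*, *Irs1*, *Akt1*, *Akt2*, *Tsc1*, *Tsc2* and *Sesn2*. They were chosen by name for their place in these pathways, out of 25122 named rows of the count table. The data were single-cell RNA libraries made with SMART-Seq2, a full-length method without molecular identifiers, from ovarian follicles of the outbred CD-1 mouse at postnatal day 6. Follicles were staged as primordial, transitioning, primary or secondary and were taken apart with Accutase into single oocytes and single somatic cells. Oocytes numbered 59, with 13, 19, 20 and 7 in these stages, and somatic cells 40, 47, 56 and 42. Since no animal is named in the labels, the cells of 1 type and stage count as a single sample. All intervals given here are at 95% and cover counting error only, not differences between animals or PCR copies, and no test was made.

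KIT is a receptor tyrosine kinase of the oocyte surface, and its ligand, KIT ligand, is made by the surrounding pregranulosa and granulosa cells. Both KIT and the insulin and IGF1 receptors, the latter through the docking protein IRS1, activate phosphoinositide 3-kinase and AKT, and AKT phosphorylates FOXO3, a transcription factor that holds primordial oocytes dormant while it is in the nucleus. AKT also inhibits the complex of TSC1 and TSC2, which restrains mTOR complex 1, the kinase complex that drives growth, while sestrin 2 lowers the activity of that complex when leucine is scarce.

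The promoters of *Kit*, *Irs1* and *Sesn2* are shown because *Kit* reads lay mostly in oocytes, *Irs1* reads nearly all in somatic cells, and *Sesn2* reads in both. The sequences are those of RefSeq on GRCm38.p6, written 5′ to 3′ along the strand of the gene, and only bases before the gene start of GENCODE release M21 were printed, out of a window of 250 bases before the RefSeq start. Capitals mark the GC box (GGGCGG, or CCGCCC on the other strand) and the E-box (CANNTG, the same on both strands). The stretches lie at chr5:75574737-75574915 on the plus strand (*Kit*), chr1:82291440-82291689 on the minus strand (*Irs1*) and chr4:132510502-132510706 on the minus strand (*Sesn2*).
Kit: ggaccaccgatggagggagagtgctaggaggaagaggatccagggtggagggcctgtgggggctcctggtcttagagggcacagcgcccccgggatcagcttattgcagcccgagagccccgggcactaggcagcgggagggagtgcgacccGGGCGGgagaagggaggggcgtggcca
Irs1: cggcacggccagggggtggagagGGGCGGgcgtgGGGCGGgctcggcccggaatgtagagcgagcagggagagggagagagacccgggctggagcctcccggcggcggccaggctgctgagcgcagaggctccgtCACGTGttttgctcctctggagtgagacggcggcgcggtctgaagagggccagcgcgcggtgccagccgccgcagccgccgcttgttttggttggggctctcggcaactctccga
Sesn2: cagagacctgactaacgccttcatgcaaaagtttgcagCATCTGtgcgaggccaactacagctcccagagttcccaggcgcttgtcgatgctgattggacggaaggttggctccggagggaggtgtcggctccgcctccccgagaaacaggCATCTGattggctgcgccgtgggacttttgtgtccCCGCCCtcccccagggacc

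In the full windows of 250 bases, the *Kit* promoter held 1 GC box and 0 E-boxes. The *Irs1* promoter held 1 E-box and 2 GC boxes, and the *Sesn2* promoter held 2 E-boxes and 1 GC box. The promoter of *Kitl* held 3 GC boxes and 0 E-boxes. Among 27025 promoters of this length, 66.2% held an E-box and 32.7% a GC box. The 4 windows held 17 to 28 CpG dinucleotides, against a median of 5 over all promoters. A match is a description of the letters and not a site shown to be bound.

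Which members could be compared depended on the library plate. A gene had values for every cell of a plate or for none, and 13266 genes were listed on all 6 plates. *Irs1* and *Sesn2* were listed on every plate. *Kit*, *Foxo3* and *Tsc2* were listed on plate 1, *Kitl* on plate 4, *Akt2* on plate 3 and *Tsc1* on plate 2, each on no other plate, and *Akt1* on plates 1 and 3. The annotation gives *Irs1* and *Sesn2* 1 transcript each and the other members 5 to 22. Of 3451 genes with 1 annotated transcript, 99.7% were listed on every plate, and of 3814 genes with 8 or more, 11.96%. Whether a listed row holds all reads of a gene with several transcripts was not tested, so levels of different members were not compared with each other. No comparison of *Kit*, *Foxo3* or *Kitl* across plates was possible, and *Kitl* and *Kit* were never listed for the same cell.

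Levels are given as CPM, the reads of a gene scaled to a fixed total of reads over all genes its plate lists, from counts summed over the cells of a group unless a single cell is named. Total counts per cell ran from 5440 to 801258 in oocytes (median 96024) and from 5150 to 409310 in somatic cells (median 72279). The labels were set beside marker lists of the study, by which it had removed cells with a high score for the other type. The separation of the types by these markers was thus in part set beforehand. Genes of the oocyte marker list took 0.392% to 8.61% of the counts of each oocyte and 0% to 0.497% of each somatic cell. Reads of 3 or more of these markers were found in 59 of 59 oocytes and 58 somatic cells. The median share of granulosa and other somatic markers was 1.95% in somatic cells and 0.00802% in oocytes, and 24 somatic cells held reads of 3 or more stroma markers. Plate 1 holds 3 plate codes: all of its 37 somatic cells carry code A, which 3 of its 13 oocytes share, while 9 oocytes carry code B and 1 carries code C (the letters stand here for the deposited codes, in their order). Of these, the 3 primordial oocytes of code B carry the time code of secondary cells, and 2 somatic cells of plate 1 have different stages in their title and in the deposited metadata. The titles were followed.

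*Kit*, the receptor (chr5:75574916-75656722, plus strand), was read in all 13 oocytes of plate 1. The 5 primordial oocytes had 494, 2300, 3446, 2428 and 4190 CPM, and the 1 transitioning oocyte had 474 CPM. The 7 primary oocytes lay between 1028 and 3546 CPM with a median of 2751. The 2 stages thus overlapped almost entirely, and the lowest oocyte of each stage carried code A. Summed over cells, the level was 2541 CPM in primordial and 1637 CPM in primary oocytes, a log2 ratio of -0.63 (-0.71 to -0.56). A single primary oocyte of 801258 counts held 42.6% of the primary reads. Within code B the levels were 2713 CPM in 3 primordial and 2921 CPM in 6 primary oocytes, a log2 ratio of 0.11 (0.01 to 0.20), and without the 3 primordial oocytes of the conflicting time code the pooled ratio was 1.21. Within code A, with 1 oocyte a stage, the primordial oocyte had 494 CPM and the primary oocyte 1028 CPM. Primary oocytes were thus the higher within code A and within code B, but the lower when all cells were pooled. The order depended on the cells taken, and plate code and stage cannot be told apart in the pooled value. Within code B, 2 oocyte markers differed little between primordial and primary oocytes. *Bmp15* had 46.3 and 63.2 CPM there, and *Sohlh1* 1328 and 1329 CPM. In the primordial and the primary oocyte of code A, *Bmp15* had 0 and 1146 CPM and *Sohlh1* 671 and 421 CPM. Whether the stage labels of code B hold was not tested, which limits the ratios within code B of all members.

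Somatic cells of plate 1 held few *Kit* reads. In primordial follicles 9 of 19 somatic cells had reads, with 89.1 CPM over all of them (74.8 to 105.4), and the highest cells had 491 and 471 CPM. One of these cells, somatic primordial replicate 19, held 59.6% of the reads. In transitioning follicles 0 of 8 cells had reads, which allows a share of up to 37.5% by a floor of 3 cells and of 36.9% by the exact binomial interval. In secondary follicles 0 of 5 had reads, which allows up to 60% and 52.2%. In primary follicles 2 of 5 cells had reads, at 21.03 and 47.35 CPM. Oocytes thus stood far above somatic cells, with a log2 ratio of 4.83 (4.59 to 5.09) in primordial follicles, where the lowest oocyte lay just above the highest somatic cell, and of 6.78 (6.15 to 7.49) in primary follicles, where the groups did not overlap. Without somatic primary replicate 4, which held 90% of the somatic reads, the primary ratio was 9.62, and without oocyte primary replicate 1 it was 7.61. Within code A, with 1 oocyte a stage, the ratios were 2.47 and 6.11, and with all somatic cells of 3 or more oocyte markers left out they were 4.25 and 9.62.

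Reads of oocyte genes went with the *Kit* reads of somatic cells in some comparisons and not in others. The 11 somatic cells with *Kit* reads had a median of 0.0687% of their counts in 11 oocyte markers, and the 26 without had 0.00592%. Their median totals were 114791 and 87530 counts. In primordial follicles the somatic *Kit* level was 3.51% of that of oocytes, while 8 oocyte markers stood at 0.262% to 14.4% of their oocyte level with a median of 6.16%. *Kit* reads were 12.4% of the summed marker reads in primordial somatic cells and 21.2% in primordial oocytes. The 8 somatic cells of transitioning follicles held the markers at 920 CPM and *Kit* at 0. The 2 cells of highest *Kit* had reads of 2 and 1 of the markers. Of 5 markers of mast cells and melanocytes, other cells known to make KIT, 3 were at 0 in all somatic cells of plate 1. The markers took 0% to 0.0439% of the counts of the *Kit*-positive cells and 0% to 0.0259% of the others, with a median of 0% in both. What part of the somatic *Kit* reads came from oocytes was not tested.

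**Figure D1:**
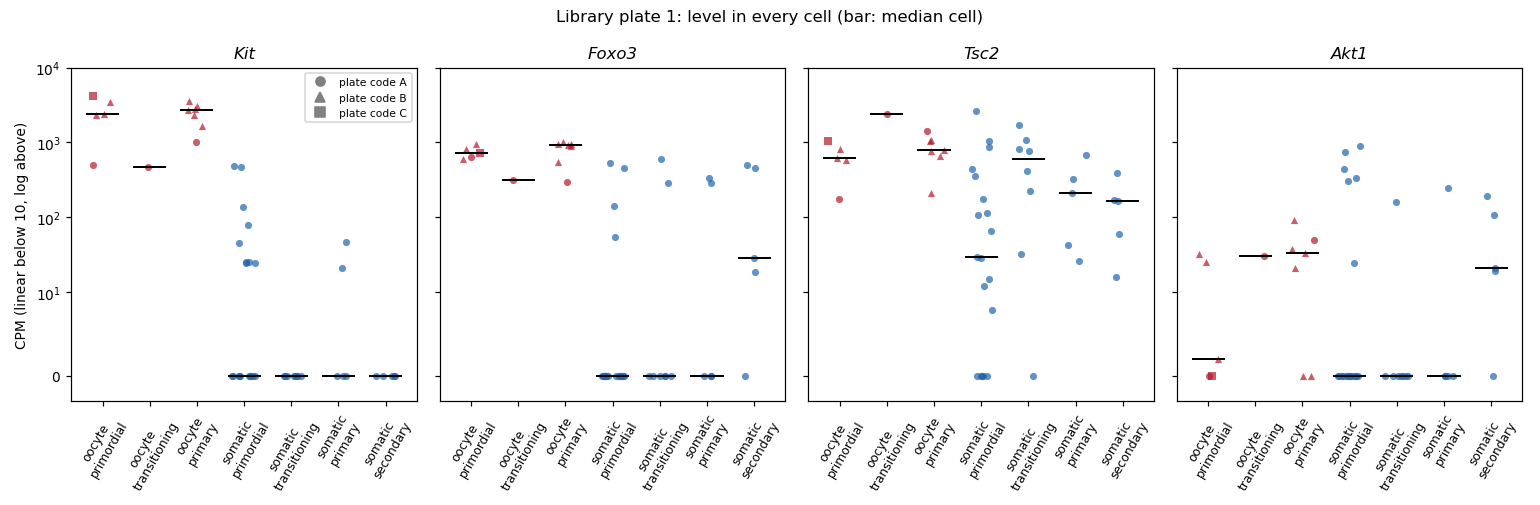
Level in CPM of *Kit*, *Foxo3*, *Tsc2* and *Akt1* in every oocyte and somatic cell of plate 1 by follicle stage, on an axis that is linear below 10 CPM and logarithmic above, with marker shapes for the 3 plate codes and a bar at the median cell. *Kit* and *Foxo3* lie at 293 CPM or above in all 13 oocytes, and most somatic cells are at 0.

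*Foxo3*, the transcription factor under AKT control (chr10:42181841-42276755, minus strand), was read in all 13 oocytes and in 12 of 37 somatic cells of plate 1. The 5 primordial oocytes had 648, 606, 963, 823 and 718 CPM and the transitioning oocyte had 317 CPM. Of the 7 primary oocytes, 1 had 293 CPM and the others 550 to 1013 CPM. The summed levels were 786 CPM (744 to 830) in primordial and 503 CPM (463 to 545) in primary oocytes, a log2 ratio of -0.64. Within code B the primary level was the higher, at 945 against 799 CPM, a log2 ratio of 0.24 (0.07 to 0.41). Within code A, with 1 oocyte a stage, the primary level was the lower, at 293 against 648 CPM. The direction thus differed between the codes, and the primordial oocytes of code B carry the conflicting time code. Both lowest oocytes, the transitioning cell and primary replicate 1, were of code A and were the deepest of the plate, with 584277 and 801258 counts.

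The somatic *Foxo3* level was 98.9 CPM in primordial follicles, with reads in 4 of 19 cells. It was 149.2 CPM in transitioning (2 of 8 cells), 123.8 CPM in primary (2 of 5) and 232.1 CPM in secondary follicles (4 of 5). The 5 secondary cells had 18.9, 461, 507, 28.9 and 0 CPM, and so ran from none to the range of the oocytes. Oocytes were higher than somatic cells by a log2 ratio of 2.99 (2.75 to 3.24) in primordial and of 2.02 (1.77 to 2.28) in primary follicles. In primary follicles the ratio was 2.93 without oocyte primary replicate 1 and 4.12 without somatic primary replicate 3, which held 83.7% of the somatic reads, but 1.24 (0.95 to 1.54) within code A and 1.54 without the somatic cells of 3 or more oocyte markers. The 12 somatic cells with *Foxo3* reads had the higher median total, 224664 counts against 63881 in the other 25. Oocyte markers, 3 or more in a cell, were read in 2 of the 12 and in 8 of the 25.

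*Tsc2*, the GTPase-activating subunit of the complex that restrains mTOR complex 1 (chr17:24595816-24632630, minus strand), was read in all 13 oocytes of plate 1 and in 31 of 37 somatic cells. The primordial oocytes had 174.1, 810, 587, 613 and 1052 CPM, the transitioning oocyte 2403 CPM, and the 7 primary oocytes 211.4 to 1425 CPM with a median of 806. Summed, the primary level was 1261 CPM and the primordial level 630 CPM, a log2 ratio of 1.002 (0.89 to 1.12). That ratio was 0.54 without oocyte primary replicate 1, which held 76.6% of the primary reads, 0.91 to 0.98 without primordial replicate 1, 3 or 4, and 0.46 (0.28 to 0.63) within code B, but 2.49 (1.99 to 3.04) without the 3 primordial oocytes of the conflicting time code. Within code A, with 1 oocyte a stage, the primordial oocyte had 174.1 CPM and the primary oocyte 1425 CPM. The primary level was thus the higher within code A and within code B, but plate code and stage cannot be told apart in the pooled ratio. The somatic level of *Tsc2* was 304 CPM at the primordial stage, 521 CPM at the transitioning, 288 CPM at the primary and 192.3 CPM at the secondary stage. Single somatic cells ranged from 0 to 2664 CPM, across the whole range of the oocytes. Oocytes were higher by a log2 ratio of 1.05 (0.89 to 1.21) in primordial and of 2.13 (1.97 to 2.30) in primary follicles. The first of these ratios was 0.87 without oocyte primordial replicate 2, 0.85 without somatic primordial replicate 8 and -0.80 within code A. Code A holds 1 primordial oocyte, so plate code and that single cell cannot be told apart. The call was also lost with TMM factors, after thinning, and without somatic cells of 3 or more stroma or oocyte markers. The ratio in primary follicles was 3.17 without somatic primary replicate 56, which held 64.5% of the somatic reads, and 2.31 within code A.

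*Kitl*, the ligand of KIT (chr10:100015630-100100416, plus strand), could be read in transitioning follicles of plate 4 only. Of 16 somatic cells 14 had reads, with 574 CPM in all (548 to 601), a median cell of 349 CPM and a highest of 1956 CPM. Of 15 oocytes 1 had reads, 2 counts in all, or 0.609 CPM (0.0738 to 2.20). The oocyte level was lower by a log2 ratio of -9.88 (-12.93 to -8.02), and 2 somatic cells without reads were the only ones within the range of the oocytes. The study removed oocytes with a high score for a set of somatic genes that includes *Kitl*, and the part of that filter in the low oocyte level was not tested. Within the plate code that all somatic cells of plate 4 carry, 5 oocytes had 0 counts, a bound of -8.40 on the log2 scale.

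*Tsc1*, the partner that stabilizes TSC2 (chr2:28641228-28691167, plus strand), was listed on plate 2, which holds primordial oocytes and primary somatic cells. All 7 primordial oocytes had reads, from 79.2 to 776 CPM with a median of 185.2, and the level was 192.1 CPM (176.8 to 208.4). The 1 primary oocyte had 301 CPM. Of 32 primary somatic cells 17 had reads, and these cells ran from 0 to 799 CPM, with a median of 11.1 and a summed level of 119.4 CPM (108.2 to 131.4). The log2 ratio of oocytes over somatic cells was 0.79 (0.62 to 0.97), below the size taken as a difference here, although it was 1.96 with TMM and 2.16 with median-of-ratios factors. On plate 2, 7 of 8 oocytes are primordial and carry another plate code than the 32 somatic cells, which are all primary, so stage, plate code and cell type cannot be told apart there. The 1 primary oocyte carries the code of the somatic cells, and its log2 ratio over them was 1.33 (1.05 to 1.61).

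**Figure D2:**
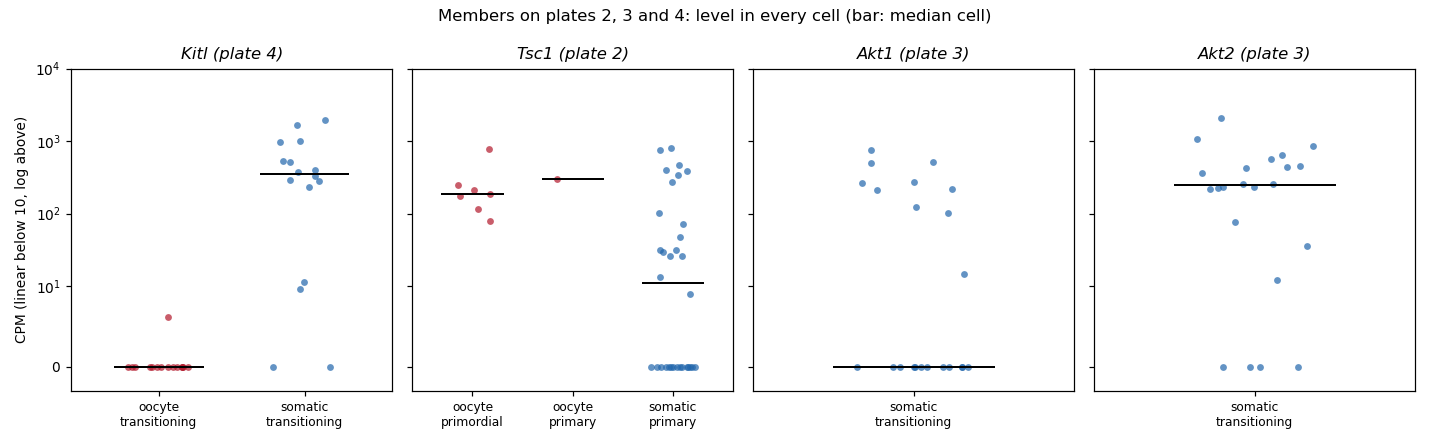
Level in CPM of *Kitl* (plate 4), *Tsc1* (plate 2), *Akt1* (plate 3) and *Akt2* (plate 3) in every cell by type and stage, on an axis that is linear below 10 CPM and logarithmic above, with a bar at the median cell. For *Kitl*, 14 of 16 somatic cells have reads and 1 of 15 oocytes does.

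*Akt1* and *Akt2* encode the kinases between phosphoinositide 3-kinase and both FOXO3 and the TSC complex. *Akt1* (chr12:112653821-112674884, minus strand) had summed levels of 18.5 CPM in the 5 primordial, 30.8 CPM in the 1 transitioning and 47.4 CPM in the 7 primary oocytes of plate 1. The primordial oocytes had 0, 2.05, 32.6, 25.3 and 0 CPM, and the primary ones ran from 0 to 93.3 CPM with a median of 33.7, so the stages overlapped although the summed log2 ratio was 1.36 (0.70 to 2.04). Within code B that ratio was 1.06, and without oocyte primordial replicate 2 it was 0.91. Somatic *Akt1* stood at 144.8 CPM in primordial (6 of 19 cells), 30.8 CPM in transitioning (1 of 8), 70.1 CPM in primary (1 of 5) and 54.4 CPM in secondary follicles (4 of 5) of plate 1. A single cell, replicate 4, held all *Akt1* reads of the primary group. The log2 ratio of oocytes over somatic cells was -2.97 (-3.56 to -2.42) in primordial and -0.56 (-1.07 to -0.07) in primary follicles. The second was a bound of 3.92 without somatic primary replicate 4 and -1.09 and -1.02 without replicates 3 and 56. On plate 3, 10 of 22 transitioning somatic cells had reads, at 134.9 CPM (122.2 to 148.6), a level not compared with that of plate 1, which lists other genes. *Akt2* (chr7:27591552-27640826, plus strand) was read in 18 of those 22 cells, with a median cell of 244.1 CPM, a highest of 2074 CPM and a level of 369 CPM (348 to 391).

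*Irs1*, the docking protein of the insulin and IGF1 receptors (chr1:82233101-82291416, minus strand), was read mostly in somatic cells, and its promoter is shown above. All 59 oocytes together held 16 counts, in 7 cells. The somatic cells held 4584 counts in 93 cells (50.3%). By plate the oocyte level was 0.290, 1.71, 0, 10.3 and 2.24 CPM on plates 1, 2, 4, 5 and 6, and the somatic level was 216.8, 131.3, 182.3, 62.98, 517.2 and 1117 CPM on plates 1 to 6. The oocyte level was the lower on each of the 5 plates that hold both types. After cells were thinned to 12000 counts, 1 of 55 oocytes and 42.1% of somatic cells still had reads.

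The log2 ratio of *Irs1* in oocytes over somatic cells was -9.87 (-15.18 to -7.39) in primordial follicles of plate 1, -6.26 on plate 2, -4.46 (-5.78 to -3.41) in secondary follicles of plate 5 and -8.96 on plate 6. Oocytes held 0 reads in the primary follicles of plate 1 and the transitioning follicles of plate 4. With a floor of 3 counts over the group, their level was 87.2-fold and 68.9-fold lower. The log2 limits by counting error were -6.14 and -5.79. The ratio in primordial follicles was -8.80 without somatic primordial replicate 8 and a bound of -8.16 without oocyte primordial replicate 1. That on plate 5 was -6.90 without oocyte secondary replicate 1, which held 85.7% of the oocyte reads. The 2 oocytes of plate 5 with *Irs1* reads both held 3 or more somatic markers, as did 5 of the 8 without. The bound in primary follicles rested on somatic primary replicate 56, with 74.4% of the somatic reads, and on oocyte primary replicate 1, and was -4.93 and -4.81 on the log2 scale without them. Within the plate code of the somatic cells, the ratio was -3.64 (-5.27 to -2.41) on plate 2, for 1 primary oocyte, and a bound of -5.21 on plate 4. On plate 6 the oocytes are 8 primary, 3 transitioning and 2 secondary cells and the somatic cells 11 secondary and 1 transitioning cell, so stage and cell type differ together. Between secondary cells of plate 6 alone the ratio was -7.32 (-12.63 to -4.84).

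**Figure D3:**
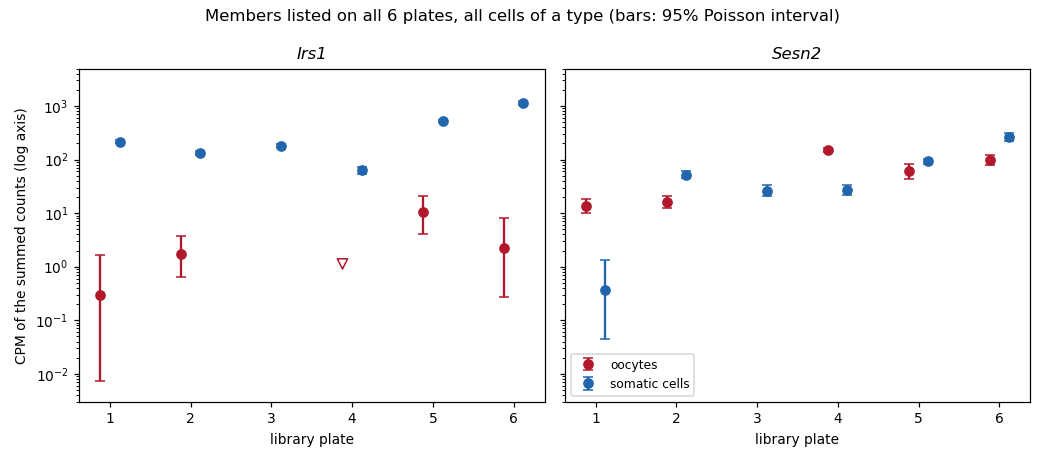
Summed level in CPM of *Irs1* and *Sesn2* in oocytes and somatic cells on each of the 6 library plates, on a logarithmic axis, with 95% Poisson intervals. *Irs1* lies higher in somatic cells on every plate that holds both types, whereas for *Sesn2* the order of the types changes from plate to plate.

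Within somatic cells the *Irs1* level varied with stage, plate and single cells. On plate 1, 7 of 19 primordial cells had reads at 558 CPM, 0 of 8 transitioning cells had reads, 3 of 5 primary cells had 221.5 CPM, and the 5 secondary cells had 30.3, 0, 14.5, 3.21 and 0 CPM, or 11.3 CPM in all. The 5 primary cells had 0, 0, 149.03, 39.5 and 611 CPM, so that the range of the primary cells covered that of the secondary ones. By the floor of 3 counts, the transitioning level was 200-fold lower than the primordial one, with a log2 limit of -7.34 by counting error. Without somatic primordial replicate 8, which held 58.8% of the reads, the bound was -6.56 on the log2 scale. The primary level was at least 79.2-fold higher than the transitioning one, and the secondary level was lower than the primary one by a log2 ratio of -4.29 (-5.11 to -3.57), or of -2.78 without somatic primary replicate 56. On plate 3, however, 9 of 22 transitioning cells had reads, at 182.3 CPM. On plate 4 only 2 of 16 transitioning cells had reads, at 62.98 CPM, with 87.6% of them in 1 cell. The 1 transitioning cell of plate 6 had 352 CPM. The complete absence of reads was thus seen on plate 1 only, but reads were also rare on plate 4.

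On plate 5 the order of stages was another one. The *Irs1* level was 609 CPM in 21 primordial cells (15 with reads), 261 CPM in 19 primary cells (8 with reads) and 585 CPM in 26 secondary cells (20 with reads). The log2 ratio of primary over primordial cells was -1.22 (-1.45 to -0.997) and that of secondary over primary cells 1.16 (0.94 to 1.40). Without somatic primary replicate 50 the second was 0.996, just below the size taken as a difference. The median cell had 292, 0 and 497 CPM, and the highest 3224, 4632 and 1406 CPM, so single cells of the 3 stages overlapped. Of the 43 cells of plate 5 with *Irs1* reads, 11 held reads of 3 or more stroma markers, and of the 23 without, 4 did. With such cells left out the ratios were -1.27 and 1.82. The first was -2.34 without cells of 3 or more oocyte markers. Both fell below the size of a call with means of single cells (-0.60 and 0.22) and with cells thinned to 12000 counts (-0.39 and 0.29), as did the first with the total of genes on every plate (-0.63).

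*Sesn2* (chr4:132492032-132510501, minus strand), the leucine-binding inhibitor of the pathway to mTOR complex 1, was spread over the cells of the 2 types in different ways. Among oocytes 42 of 59 had reads (71.2%, 57.9 to 82.2), and among somatic cells 29 (15.7%, 10.8 to 21.7). With cells thinned to 12000 counts, the shares were 47.3% of oocytes and 10.4% of somatic cells. The reads numbered 723 counts in oocytes and 774 counts in somatic cells. The highest somatic cell had 1763 CPM and the highest oocyte 375 CPM.

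The order of the types in summed *Sesn2* level differed between plates. On plate 4 the transitioning oocytes had 149.3 CPM (136.4 to 163.1), with 12 of 15 cells read and a median of 130 CPM, and the transitioning somatic cells 27.3 CPM (21.8 to 33.8), with 2 of 16 cells read, 1 of which held 96.4%. In primary follicles of plate 1, where 0 of 5 somatic cells had reads, the oocyte level was 9.08-fold higher by the floor of 3 counts (log2 limit 2.77). The log2 ratio of oocytes over somatic cells was 2.45 (2.12 to 2.80) on plate 4. It was -1.69 (-2.14 to -1.25) on plate 2, -1.50 (-2.48 to -0.65) in secondary follicles of plate 5 and -1.42 (-1.83 to -1.01) on plate 6. These 3 calls depended on the scaling and the cells. On plate 2 the ratio was -0.52 with TMM factors, -0.32 with median-of-ratios factors, -0.53 with means of single cells, -0.37 after thinning, -0.62 without cells of 3 or more stroma markers and -0.94 within the plate code of the somatic cells. On plate 5 it was -0.83 with median-of-ratios factors. On plate 6 it was -0.61 and -0.45 with TMM and median-of-ratios factors, -2.82 without somatic cells of 3 or more oocyte markers and -2.70 between secondary cells alone. On these 3 plates the reads of somatic cells lay in 2 of 32, 9 of 26 and 4 of 12 cells, and those of oocytes in 5 of 8, 4 of 5 and 13 of 13 cells. The share of cells with reads was higher in oocytes on each of the 5 plates that hold both types.

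By stage, *Sesn2* in oocytes of plate 1 was read in 1 of 5 primordial cells (2.38 CPM), in the transitioning cell (32.5 CPM) and in 2 of 7 primary cells (20.3 CPM), with a log2 ratio of primary over primordial oocytes of 3.09 (1.55 to 5.08) on 24 and 4 counts. On plate 2 the 7 primordial oocytes had 14.5 CPM and on plate 5 the 1 primordial oocyte had 114.9 CPM, on 15 counts. On plate 5 primary and secondary oocytes did not differ beyond counting error (48.8 and 45.4 CPM, log2 ratio -0.10, -1.35 to 1.12). On plate 6 the 3 transitioning oocytes had 17.05, 76.45 and 217.7 CPM and the 8 primary ones 47.5 to 266 CPM, with a log2 ratio of 0.54 (-0.35 to 1.56), which was 1.25 without oocyte transitioning replicate 19. In somatic cells of plate 5 the level was 63.2 CPM in primordial, 84.7 CPM in primary and 128.4 CPM in secondary follicles. All primary reads lay in 1 cell of 19, replicate 50, without which primary cells were lower than primordial ones by a bound of -3.80 and secondary cells higher than primary ones by a bound of 4.83 on the log2 scale.

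**Figure D4:**
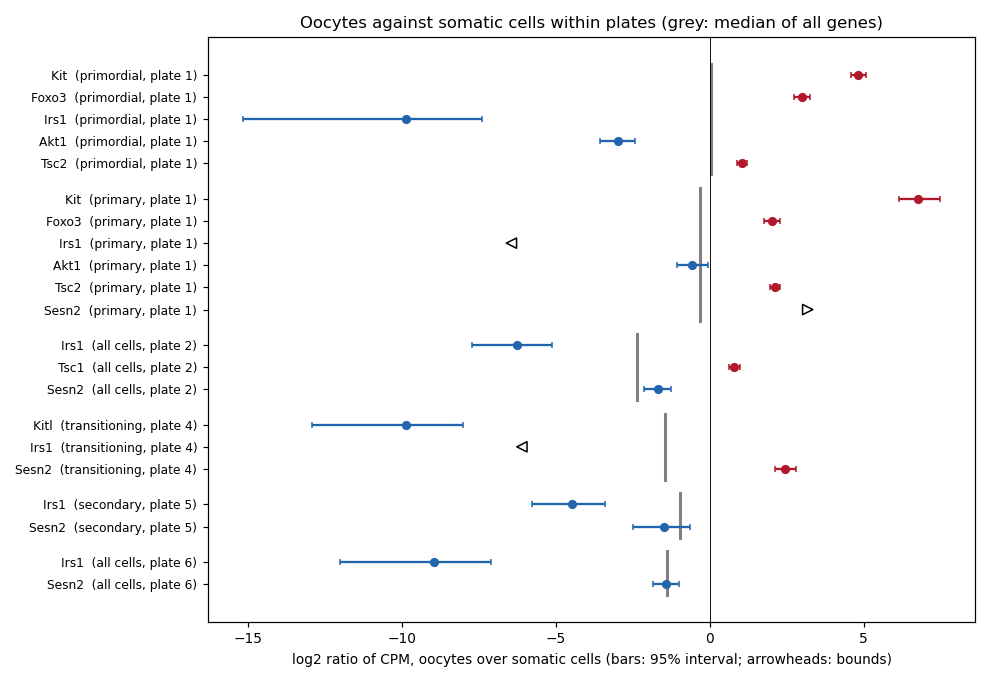
Log2 ratio of CPM, oocytes over somatic cells, for each member in the 6 comparisons within plates, with 95% intervals, arrowheads for bounds and a grey mark at the median of all genes. *Irs1* and *Kitl* lie to the left in every comparison that has them, *Kit* and *Foxo3* to the right, and *Sesn2* on both sides.

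Taken over all members, a difference was called where the log2 ratio was 1 or more in size and 1 of the 2 groups had at least 10 CPM. Such calls were common among all genes of these small groups, and the counts for members are to be read against that share. Between oocytes and somatic cells, the call was made for 5 of 5 measured members in primordial follicles of plate 1 (all genes: 78.2%), for 5 of 6 in primary follicles of plate 1 (73.5%), for 2 of 3 on plate 2 (83.2%), for 3 of 3 in transitioning follicles of plate 4 (79.3%), for 2 of 2 in secondary follicles of plate 5 (69.2%) and for 2 of 2 on plate 6 (77.2%). The median log2 ratio of all genes was 0.03, -0.33, -2.37, -1.45, -0.96 and -1.38 in these comparisons, so the median gene was lower in oocytes on plates 2, 4, 5 and 6.

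Between stages of oocytes, 3 of 5 members (*Akt1*, *Tsc2* and *Sesn2*) were called higher in primary than in primordial cells of plate 1 (all genes: 44.5% in either direction, 12.3% higher), 1 of 2 in secondary against primary cells of plate 5 (29.3%, 10.4% higher), and 0 of 1 in primary against transitioning cells of plate 6 (27.2%). The call of plate 5 was *Irs1*, 2.53-fold higher on 7 counts against 0, the latter set to a floor of 3 counts. The log2 ratio was 1.34, and its lower limit by counting error was 0.65, below the size of a call. The call was lost without oocyte primary replicate 9, 10 or 11, with bounds of 0.74 to 0.99, and without secondary replicate 1. Between stages of somatic cells of plate 1, 3 of 5 members (*Kit*, *Irs1* and *Akt1*) were called lower in transitioning than in primordial cells (75.6%, 47.0% lower), the same 3 higher in primary than in transitioning cells (74.8%, 42.6% higher), and *Kit* and *Irs1*, 2 of 5, lower in secondary than in primary cells (59.7%, 28.9% lower). Signs of RNA quality differed between these stages. The median somatic cell of plate 1 had 6.24% mitochondrial, 32.4% ribosomal and 18.4% intronic reads in primordial, 12.9%, 10.9% and 24.996% in transitioning, 5.83%, 15.5% and 16.96% in primary and 2.52%, 16.1% and 18.8% in secondary follicles. Their part in these differences was not tested. *Irs1* was the 1 member of 2 called on plate 5 in both steps, primary against primordial (62.2%, 27.6% lower) and secondary against primary (50.6%, or 1569 of 5406 genes higher), and both calls were lost with means of single cells and after thinning. The median log2 ratio of all genes was -0.55, -0.30 and -0.13 in the oocyte comparisons and -0.73, 0.40, 0.01, 0.35 and 0.09 in the somatic ones. Neighbouring stage comparisons share a group of cells.

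The somatic stage groups of plate 1 held 5 to 19 cells, and single cells moved many of these ratios. From primordial to transitioning cells, *Kit* was 31.9-fold lower by the floor of 3 counts, with a log2 limit of -4.68 by counting error. *Akt1* was lower by a log2 ratio of -2.23 (-2.81 to -1.70). *Foxo3* (0.59, 0.26 to 0.92) and *Tsc2* (0.78, 0.60 to 0.96) stayed below the size of a call. Without somatic transitioning replicate 3, the deepest of its group, the values were -4.40 for *Kit*, -1.64 for *Akt1*, -7.05 for *Irs1* and 1.18 for *Foxo3*, of which the last passed that size. From transitioning to primary cells, *Kit* was 5.33-fold higher by the same floor (log2 limit 1.98), or a bound of 1.82 without that same cell. Without primary replicate 4 the primary cells held 2 *Kit* counts, under the floor, and no bound could be given there or against secondary cells. *Akt1* had a ratio of 1.19 (0.60 to 1.81), which was 0.60 without transitioning replicate 3 and a bound of -3.30 without primary replicate 4. *Foxo3* (-0.27) was -2.36 without primary replicate 3, and *Tsc2* (-0.86) was -1.90 without primary replicate 56 and -1.002 without transitioning replicate 3. For *Irs1* the bound of 6.31 was 4.79 without primary replicate 56 and 5.72 without transitioning replicate 3. The direction of *Irs1* held in each of these settings.

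From primary to secondary somatic cells of plate 1, *Kit* was 7.13-fold lower by the floor of 3 counts (log2 limit -2.40), on 20 counts against 0. *Foxo3* (log2 ratio 0.91, 0.63 to 1.18) passed the size of a call where a single cell was left out, with 1.31, 1.22 and 1.004 without secondary replicates 1, 4 and 5, and 1.06 and 3.002 without primary replicates 1 and 3. *Tsc2* (-0.58, -0.81 to -0.36) was -1.22 without secondary replicate 1 and -1.002 without primary replicate 4. *Akt1* (-0.37, -0.82 to 0.08) was -1.76 without secondary replicate 3 and a bound of 4.12 without primary replicate 4, so its direction rested on that cell. *Irs1* was -5.55 without secondary replicate 1 and -2.78 without primary replicate 56, lower in secondary cells in both.

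The other genes of the pathways were taken as 8 lists. In primordial follicles of plate 1, 58 were listed and 52 measured, of which 18 were called higher and 19 lower in oocytes, beside 39.7% and 38.5% of all genes. The list of insulin and IGF receptors also holds their ligands, adaptors and inhibitors. It held more genes called lower than higher in oocytes in each comparison. In the order given above, 5 of 6, 4 of 6, 1 of 1, 3 of 3, 4 of 5 and 2 of 2 measured genes were called lower. All genes were called lower in 38.5%, 40.1%, 61.4%, 54.8%, 49.2% and 53.7% of cases. None of the genes named below is a receptor, so the counts of the list are not a statement on the receptors themselves. The median log2 ratio of the list was -3.78, -2.51, -4.13, -2.46, -4.001 and -5.12, beside the medians of all genes given above. *Irs2*, the other main docking protein, was lower in oocytes on plate 1, at 50.7 against 193.3 CPM in primordial follicles and 14.4 against 105.9 CPM in primary follicles, and on plate 2 by a log2 ratio of -4.13. *Igf1*, a ligand of these receptors, had 0 counts in primary oocytes of plate 1 against 677 CPM in their somatic cells, and 0.305 against 1212 CPM on plate 4. *Socs3*, an inhibitor of cytokine and insulin signalling, was at 0 in primordial oocytes and at 966 CPM in their somatic cells, and *Grb14*, which binds and inhibits the insulin receptor, at 0 against 508 CPM on plate 6. The exception among the named genes was *Grb10*, an inhibitor of insulin and IGF1 receptor signalling, which was higher in primary oocytes of plate 1, at 60.1 against 1.49 CPM. Secondary somatic cells of plate 1, however, had 140.1 CPM of *Grb10*.

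Of the genes in the lists of mTOR complexes and of their nutrient branch, 7 were called higher and 3 lower of 15 in primordial follicles of plate 1, 4 and 3 of 14 in primary follicles, 0 and 5 of 13 on plate 2, 3 and 0 of 7 on plate 4, 6 and 6 of 17 on plate 5 and 5 and 3 of 13 on plate 6. All genes were called higher in oocytes in 39.7%, 33.4%, 21.7%, 24.6%, 20.0% and 23.5% of cases. They were called lower in 38.5%, 40.1%, 61.4%, 54.8%, 49.2% and 53.7%. *Rraga*, a Rag GTPase that brings mTOR complex 1 to the lysosome, had 1696 CPM in secondary oocytes and 270 CPM in secondary somatic cells of plate 5. *Deptor*, an mTOR-binding inhibitor, had 420 and 89.2 CPM there. *Prr5*, a subunit of mTOR complex 2, was read in all 13 oocytes of plate 6 at 282 CPM and in 0 of 12 somatic cells. *Prkaa2*, a catalytic subunit of AMPK, which inhibits mTOR complex 1, had 99.03 against 0 CPM on plate 4, 147.6 against 28.6 CPM on plate 5 and 126.6 against 0 CPM on plate 6. *Seh1l*, part of the GATOR2 complex of amino acid sensing, had 344 against 34.1 CPM in primordial follicles of plate 1 and 641 against 304 CPM on plate 4. The opposite was seen for *Wdr59*, of the same complex, with 17.7 against 977 CPM on plate 2 and a log2 ratio of -5.20 on plate 5.

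Between stages on plate 5, 8 of 32 measured genes of the lists were called in secondary against primary oocytes, all lower (all genes: 29.3%, 18.8% lower), and 16 of 39 in the same step of somatic cells (50.6%), 11 higher and 5 lower (1569 and 1167 of 5406 genes). On plate 1, primary against primordial oocytes gave 5 higher and 16 lower of 44, beside 12.3% and 32.2% of all genes. Here *Grb10* was at 60.1 against 10.1 CPM, *Rraga* at 511 against 109.1 CPM, and *Cat*, which encodes catalase and is a known FOXO target, at 8.47 against 116.8 CPM. The primary sums take in oocyte primary replicate 1 of code A, with 801258 counts. The primordial sums take in the oocytes of code B with the conflicting time code. These genes were not recomputed within plate codes or without single cells, so plate code and stage cannot be told apart for them. In somatic cells *Foxo1*, the FOXO factor of granulosa cells, was higher in secondary than in primary follicles on plate 1 (259 against 52.9 CPM) and on plate 5 (473 against 161.7 CPM). *Sesn3*, a paralogue of *Sesn2*, was, like *Irs1*, lowest in the primary cells of plate 5, with 244.8 CPM in primordial, 92.4 in primary and 346 CPM in secondary follicles.

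The genes whose level was most like that of a member were found by Pearson correlation of log2(CPM + 1) over sets of cells of 1 type, stage and plate, as a description over sets that share plates. For *Kit*, over 6 sets of plate 1, they were *Cldn4* (r = 0.997), *AC123679.2*, *Adamtsl1*, *Stx5a* and *Smc1b*, and for *Foxo3*, over the same 6 sets, *Nap1l4* (r = 0.994), *Dr1*, *Pnma5*, *Rbm48* and *Frmpd1*. For *Akt1*, over 7 sets, they were *Colec12* (r = 0.973), *Diaph1*, *Plpp3*, *Klf4* and *Mest*. For *Sesn2*, over 19 sets of all 6 plates, the highest value was 0.895 for *Slc39a1*, followed by *Hmgxb3*, *Zfp526*, *Bloc1s3* and *Lrrc20*. These are the highest values among about 5390 genes for *Kit* and *Foxo3*, 3680 for *Akt1* and 2440 for *Sesn2*. Since the numbers of sets and genes differ, the values of different members cannot be compared with each other.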

How the data were processed

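The libraries were SMART-Seq2 libraries of single cells. According to the methods of the study, reads were aligned by the authors to GRCm38 and analysed in Seurat (version 4.0 in the submitters' processing notes), with removal of cells with few genes and of cells with a high module score for the other cell type. The counter is not given in the sources used here. The deposited table holds the authors' estimated counts per gene and cell, not normalized, of which 17.2% of the values above 0 are not whole. The deposited metadata give the total count and fractions of reads per cell, made by the authors. The 27 rows with dates in place of names (0.0743% of counts) were left out.

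Counts were summed per cell type, stage and plate and scaled to CPM by the total of all genes the plate lists. Intervals are exact Poisson (levels), exact binomial (shares) and from the binomial split of 2 sums (ratios). A group at 0 was set to a floor of 3 counts for bounds. Such bounds leave out the counting error of the other group, which the limits given beside them include. Comparisons were made within plates, with 5 or more cells of both types or all cells of a plate. Oocytes of plates 5 and 6 were compared with fewer cells. Labels name no animal, so no test was made. The calculation was tested on simulated counts.

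Named genes of the pathway lists are the up to 3 highest and 3 lowest per comparison with at least 50 CPM and reads in at least 50% of cells of 1 group, of which a selection is printed. The members and the lists were chosen with earlier results of these data known. Markers are those of oocytes, somatic cells, stroma, endothelium, immune cells, and mast cells and melanocytes. The last 4 lists had medians of 0% of counts in both cell types.

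Alternatives were scaling by TMM (edgeR 4.0.16) or by the median of ratios (DESeq2 1.42.0), totals over genes on every plate, means of single cells, thinning, no minimum level, and leaving out cells, those with stroma markers included. Added after the data were seen were leaving out somatic cells with oocyte markers, single plate codes, secondary cells of plate 6 alone and primordial oocytes with a conflicting time code. Positions are from GENCODE M21, and all 9 members were matched in the RefSeq promoter table.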

Additional observations from a re-analysis of the deposited data

Results flagged for a closer look

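Members were searched for a cell standing apart from the others of its type, stage and plate, in 20 sets of 4 to 10 cells, on log2(CPM + 1). There were 3 such cells, and chance alone gives about 1 flag in 20 sets.

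The first was oocyte primordial replicate 1 of plate 1, the lowest in *Kit* with 494 CPM, where the other 4 had 2300 to 4190 CPM, a gap of 0.719 of the range. It was the only primordial oocyte of code A. The second was oocyte primary replicate 3 of plate 1, the lowest in *Tsc2* with 211.4 CPM, on 1.15 counts of a total of 5440, where the others had 666 to 1425 CPM, a gap of 0.601 of the range. The third was oocyte secondary replicate 2 of plate 5, with 0 counts of *Sesn2* among 74073, where the others had 44.6 to 116.5 CPM, a gap of 0.801 of the range. Each of the others held 3 counts, so this flag rests on 0 against 3 counts.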

How the results depend on the processing

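Of 33 differences called for members, 19 kept their call under every alternative and 10 lost it under at least 1. The other 4, *Kit* in primary against transitioning and in secondary against primary somatic cells of plate 1 and *Sesn2* in primary against primordial oocytes and in primary follicles of plate 1, had no value under at least 1, where counts lay at or under the floor or a bound had no direction. Direction was kept for 31 wherever there was a value. Direction changed for *Akt1* in primary against transitioning somatic cells of plate 1, where leaving out 1 cell gave log2 ratios from -3.30 (without somatic primary replicate 4) to 1.71, and for *Tsc2* in primordial follicles, oocytes against somatic cells, with -0.80 within code A. With cells thinned to 12000 counts, members called were 1 in primary against primordial oocytes of plate 1, 0 in secondary against primary oocytes of plate 5, 5 in transitioning against primordial somatic cells of plate 1 and 0 in primary against primordial somatic cells of plate 5. Without somatic cells with 3 or more oocyte markers, 1 was called in primary against transitioning somatic cells of plate 1 and 2 in primary against primordial ones of plate 5. Without cells with stroma markers, 1 was called on plate 2 between the types. With median-of-ratios factors, 1 was called between the types on plate 5 and 1 on plate 6, and with TMM factors 1 on plate 6. Leaving out 1 cell gave 0 to 1 in secondary against primary oocytes of plate 5 and in primary against transitioning oocytes of plate 6, 2 to 4 in secondary against primary somatic cells of plate 1, and 1 to 2 in primary against primordial somatic cells of plate 5. The causes were not tested beyond these settings.

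Of 83 levels, 59 lay outside their counting interval with the total of genes on every plate, so levels are comparable within a plate only. Thinning lowered the share of cells with reads beyond its interval in 14 of 83 sets. No paired analysis was possible because the replicate numbers name single cells and no test was made.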
